A study of Mus musculus with 30 samples.

Results

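Oligodendrocyte progenitors are the glial cells that divide in the postnatal cortex, stay there in the adult, and give rise to the myelinating oligodendrocytes. They carry the PDGF receptor alpha, through which the growth factor PDGF-A drives their division, and the proteoglycan NG2 on their surface. The transcription factors Olig1, Olig2, Sox10 and Nkx2-2 specify the lineage and drive its maturation, and the receptor Gpr17 marks the transient stage between a progenitor and a myelin-forming cell.

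The 7 genes described here are Pdgfra, Gpr17, Cspg4 (which encodes NG2), Olig1, Olig2, Sox10 and Nkx2-2. They were read from all probe sets whose array annotation gives one of these symbols and no other, which were 13 of the 36899 probe sets on the arrays. The RNA came from mouse primary visual cortex, or V1, at postnatal day 14 (P14, 3 litters), day 28 (P28, 3 litters) and day 60 (P60, 4 litters). V1 had been microdissected from litters reared in standard conditions. No treatment or genetic change is named for any age, and strain, sex and the number of animals in a litter are not given in the sources used here. Each litter was hybridised to 3 Affymetrix array types, MG-U74Av2, Bv2 and Cv2, here chips A, B and C, which makes 30 arrays. The values are MAS5 signals on a linear scale, and a signal can be compared between ages for a probe set but not between probe sets.

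The tissue label was checked on neuronal genes, since neurons are the main source of cortical RNA. The brightest probe set of Snap25, a synaptic vesicle fusion protein, ranged from 9055 to 25059 over the 10 litters, and that of Slc17a7, the glutamate transporter of excitatory neurons, from 4511 to 12762. Both lay far above the array background, taken as the 95th percentile of 15 probe sets for Bacillus control transcripts, which was 98.4 for chip A, 153 for B and 252 for C. The arrays of P14 litter 1 stand apart. Their ratio of 3′ to 5′ signal, a measure of RNA integrity, was 9.57 to 12.2 for Gapdh and 12.2 to 12.8 for Actb, while on the other 27 arrays it was at most 1.32 for Gapdh and 1.5 for Actb. Values without that litter are given below where it changes a call, a direction or an overlap of groups of a member or a list.

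Among the members bright enough to follow, the receptor of committed precursors, Gpr17, averaged 513 ± 178 at P60 and 923 ± 210 at P14 (SD, n = 4 and 3), and the brightest Pdgfra probe set and Olig1 also had their lowest means at P60. Both Sox10 probe sets had their lowest mean at P14. None of these differences passed the test with all litters, and how large they are depends on single litters, among them P14 litter 1 and P60 litter 3. Cspg4 and Olig2 were below the array background throughout.

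A probe set was tested if its signal was above the median of its chip type on at least 3 arrays. Of the 13 member probe sets, 6 passed, and these stand for 4 genes: 2 for Pdgfra, 1 for Gpr17, 1 for Olig1 and 2 for Sox10. The other 7 are described by their signals only. No member passed the test in any comparison with all litters, by limma with Benjamini-Hochberg adjustment over all 20724 tested probe sets. For P60 against P14 the count was 0 of 6, and 0.396% of all tested probe sets passed. For P60 against P28 it was 0 of 6 with 0.0% of all passing, and for P28 against P14 it was 0 of 6 with 0.00483%. With the 3 ages tested together it was 0 of 6, and 0.111% passed. At an unadjusted p under 0.05, 1 member (Gpr17) was lower at P60 than at P14, where 7.93% of all tested probe sets were, and 2 members (Gpr17 and a Pdgfra probe set) were lower at P60 than at P28, where 2.38% were. None was past that level between P28 and P14, where 3.62% of all were lower at P28 and 4.25% higher. Without P14 litter 1 the count for P60 against P14 stayed at 0 of 6, while 2.4% of all tested probe sets passed. With each array weighted by a precision estimated from the same data, 2 of 6 passed (Gpr17 and a Pdgfra probe set), but so did 17.5% of all, and for the 3 ages together 1 of 6 with 14.6% of all.

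**Figure D1:**
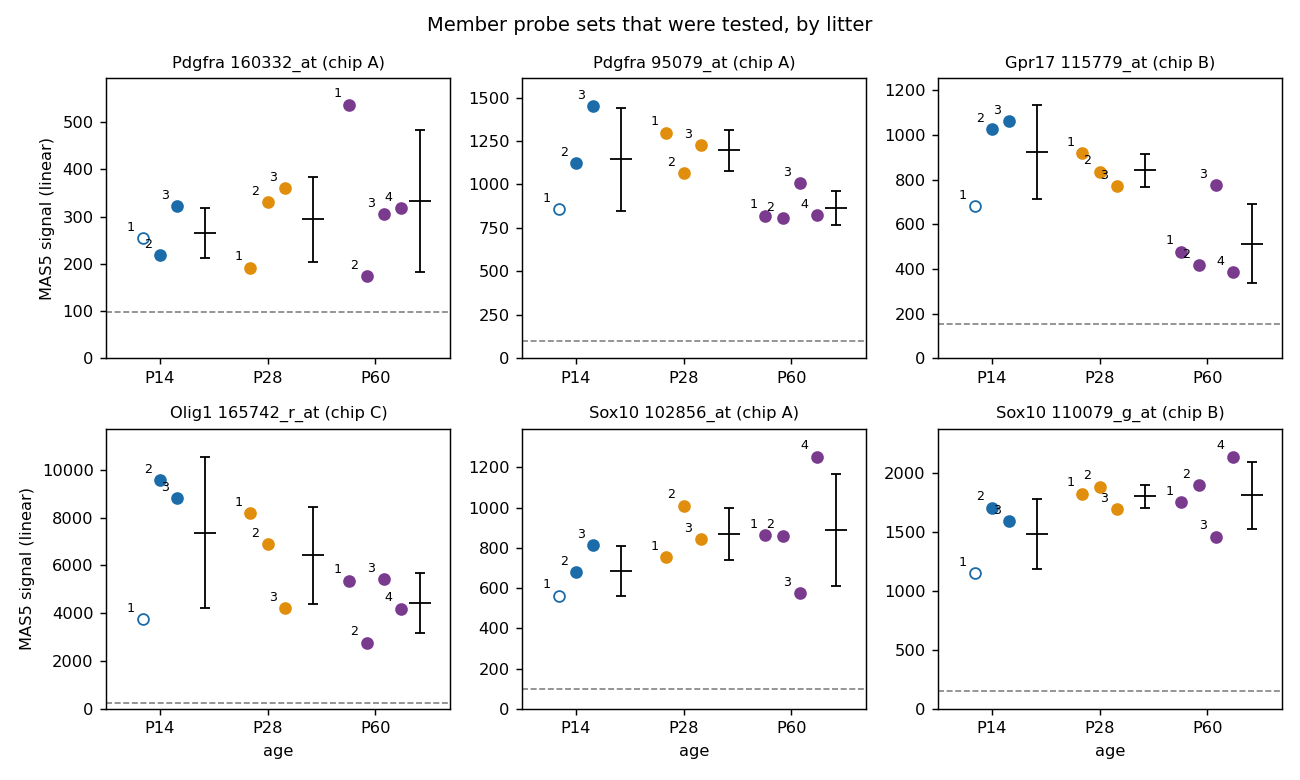
MAS5 signal (linear scale, y axis) of the 6 tested member probe sets in every litter at P14, P28 and P60 (x axis). Points are litters, numbered, with P14 litter 1 as an open circle. Horizontal bars with whiskers are the mean ± SD, and the dashed line is the 95th percentile of the Bacillus control probe sets. Gpr17 has 3 of its 4 P60 litters below 500, and the Sox10 probe sets have no such drop.

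The promoter of Pdgfra is shown because Pdgfra is a tested member and the motifs of the transcription factors described here can be looked up in it. The sequence is RefSeq's, on build GRCm38.p6, chr5:75152001-75152300 on the plus strand, and covers 250 bases before a transcription start and 50 after it. The annotated gene begins upstream of this window, at base 75151322. Capitals mark the E-box motif CANNTG, the kind of site that Olig1 and Olig2 bind as basic helix-loop-helix proteins.
Pdgfra promoter: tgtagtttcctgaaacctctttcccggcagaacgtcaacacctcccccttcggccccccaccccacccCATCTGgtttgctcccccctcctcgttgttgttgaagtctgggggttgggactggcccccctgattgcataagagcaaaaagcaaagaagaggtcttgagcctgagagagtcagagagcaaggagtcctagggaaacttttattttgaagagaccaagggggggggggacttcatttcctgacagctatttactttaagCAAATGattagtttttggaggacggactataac
On both strands together it held 2 E-boxes, 1 match to ACAANG, the core that Sox proteins bind, and no GGGCGG box. Of the 32851 mouse promoters of the same length, 72.3% held an E-box and 41.2% an ACAANG match, so both motifs are common in such windows. A match describes the letters of the window and is not evidence that a factor binds there.

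Pdgfra, the receptor for PDGF-A that progenitors need to divide, had its brightest probe set (95079_at, chip A) at the lowest levels at P60. Its signal was 859, 1125 and 1452 in the P14 litters 1, 2 and 3, then 1299, 1066 and 1225 in the P28 litters, and 821, 805, 1009 and 823 in the P60 litters 1, 2, 3 and 4. All 4 P60 litters lay below all 3 P28 litters, as did 4.46% of all tested probe sets in that direction, and P14 litter 1 lay among the P60 values. The means were 1145 ± 297 at P14, 1197 ± 119 at P28 and 865 ± 96.8 at P60 (SD, n = 3, 3 and 4). In this RNA of whole tissue, fewer cells of a type and less RNA per cell cannot be told apart.

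The log2 change of this Pdgfra probe set was -0.45 for P60 against P28 (95% interval -0.90 to -0.00; limma adjusted p = 0.894). It was -0.37 for P60 against P14 (interval -0.81 to 0.08; limma adjusted p = 0.403) and 0.09 for P28 against P14 (SE 0.22; limma adjusted p = 0.954). None of the 3 passed the test. Without P14 litter 1 the P60 and P14 litters did not overlap, and the change for P60 against P14 was -0.55 (limma adjusted p = 0.118). Without P14 litter 3 that change was -0.18 (limma adjusted p = 0.726). P14 litter 1 also decided the sign of the small difference between P28 and P14, which was -0.10 without it.

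The second tested Pdgfra probe set (160332_at, chip A) did not follow the first. It read 254, 219 and 322 at P14, 192, 331 and 360.3 at P28, and 537, 174, 306 and 317 at P60. The ages overlapped throughout, with both the highest and the lowest litter at P60. The means were 265 at P14, 295 at P28 and 334 at P60. The log2 change for P60 against P14 was 0.22 (limma adjusted p = 0.769). It turns to -0.020 when P60 litter 1 is left out. Across the 10 litters its correlation with the brighter probe set was -0.09, as a description. The third Pdgfra probe set (161202_r_at, chip A) lay between 4.75 and 53.9, below the background on all 10 litters.

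Gpr17, a G protein-coupled receptor of committed oligodendrocyte precursors that is switched off before myelination, had its lowest mean at P60. Its probe set (115779_at, chip B) read 682, 1025 and 1063 at P14, 919, 836 and 769.7 at P28, and 478, 416, 774 and 387 at P60. P60 litters 1, 2 and 4 lay below every younger litter, while P60 litter 3 lay within the range of the younger ages. The chip B arrays of P60 litters 1 and 4 are of doubtful quality. Their mean correlations with the other arrays were 0.811 and 0.807, against 0.882 for P60 litter 3. The means were 923 ± 210 at P14, 841 ± 74.7 at P28 and 513 ± 178 at P60 (SD, n = 3, 3 and 4).

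Gpr17's log2 change for P60 against P14 was -0.80 (95% interval -1.33 to -0.27), which is a ratio of 0.574, with an unadjusted p of 0.00637 and a limma adjusted p of 0.156. For P60 against P28 it was -0.70 (interval -1.23 to -0.17; unadjusted p = 0.0142; limma adjusted p = 0.894). Between P28 and P14 it was -0.10 (limma adjusted p = 0.953). The 3 ages together gave a limma adjusted p of 0.299. Neither interval for P60 reaches 0, and neither comparison passed after adjustment over all probe sets.

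A single litter decided whether Gpr17 passed. Without P60 litter 3 the change for P60 against P14 was -0.997 and passed (limma adjusted p = 0.0485), in a comparison where 0.898% of all tested probe sets passed in the lower direction. Without P14 litter 1 it was -0.99 (limma adjusted p = 0.0571), and then both the P60 and the P28 litters lay wholly below the P14 litters. Over all settings tried, the adjusted p was from 0.00172, with each array weighted by its estimated precision, to 0.372, with the litter number as a block.

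**Figure D2:**
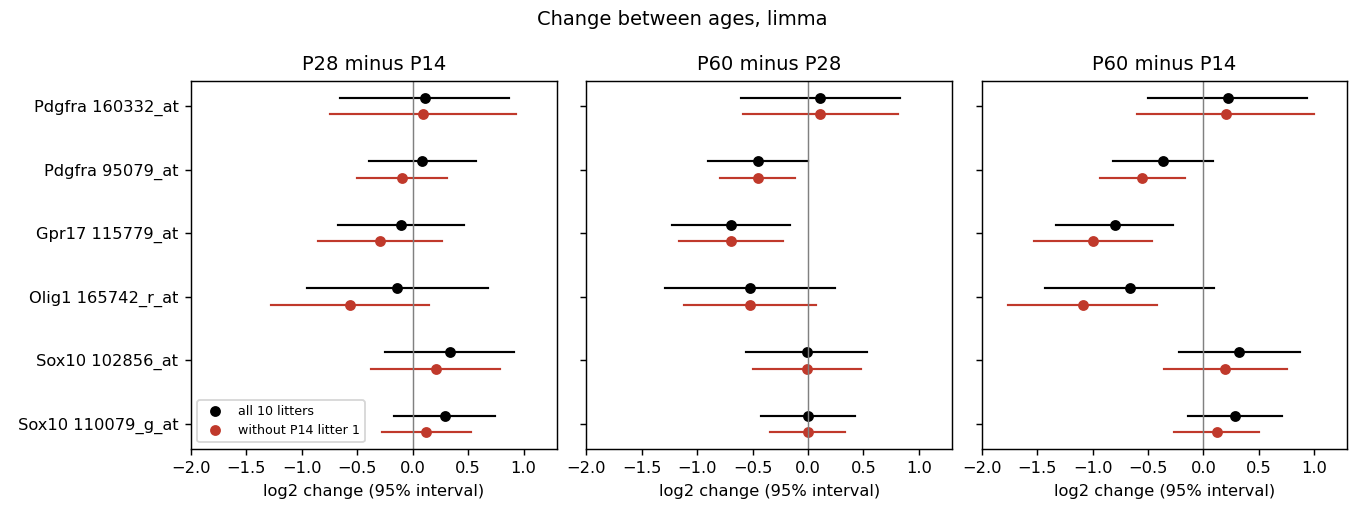
Log2 change (x axis) of each tested member probe set (rows) in the 3 comparisons, with the 95% interval of limma as a line. Black uses all 10 litters and red leaves out P14 litter 1. Gpr17 lies left of 0 for P60 against P28 and for P60 against P14, and the intervals of Olig1 and both Sox10 probe sets include 0 with all litters.

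Cspg4, the NG2 proteoglycan that progenitors share with pericytes, had 1 probe set (117207_at, chip B). It lay between 33.3 and 103, with a median of 47.0 over the 10 litters, and all 10 were below the background of 153. No change of Cspg4 with age can be read at this signal, and this says nothing about the level of NG2 in the tissue.

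Olig1, a factor that promotes oligodendrocyte maturation, had 1 probe set (165742_r_at, chip C), whose suffix marks a design under relaxed rules. It read 3762, 9559 and 8812 at P14, 8182, 6881 and 4201 at P28, and 5369, 2770.1, 5413 and 4191 at P60. P14 litters 2 and 3 were the highest of all, P14 litter 1 was lower than any litter but P60 litter 2, and the P60 and P28 litters overlapped. The chip C array of P60 litter 2 had the lowest mean correlation with the other arrays of its type, 0.789. The means were 7377 ± 3153 at P14, 6421 ± 2030 at P28 and 4436 ± 1246 at P60 (SD, n = 3, 3 and 4).

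For Olig1 the log2 change for P60 against P14 was -0.66 (95% interval -1.43 to 0.10; limma adjusted p = 0.373). For P60 against P28 it was -0.52 (limma adjusted p = 0.898), and for P28 against P14 it was -0.14 (limma adjusted p = 0.957). None passed the test. Without P14 litter 1 the change for P60 against P14 was -1.09 (limma adjusted p = 0.0863), all P60 litters lay below the remaining P14 litters, and so did all P28 litters. Other litters made the change smaller. It was -0.42 without P14 litter 2 (limma adjusted p = 0.619) and -0.46 without P60 litter 2 (limma adjusted p = 0.546).

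Leaving out P14 litter 1 thus separated 3 of the 6 tested probe sets completely in the lower direction for P60 against P14, those of Pdgfra (95079_at), Gpr17 and Olig1, where 14.9% of all tested probe sets were separated that way. For P28 against P14 it separated 2 of 6, Gpr17 and Olig1, where 18.7% of all were. None of the 6 was separated for P60 against P14 with all litters, where 6.42% of all were separated in the lower direction.

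Olig2, the factor that specifies the lineage and lies beside Olig1 on chromosome 16, had 3 probe sets on chip B. Probe set 106814_at lay between 22.3 and 119, 107881_at between 18.5 and 70.4, and 163516_at between 14.9 and 105. All 3 were below the background of 153 on every litter, so the neighbour of Olig1 could not be followed on these arrays.

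Sox10, which binds the promoters of myelin genes and is kept on from progenitor to mature oligodendrocyte, had both tested probe sets near the same level at P28 and P60. The brighter one (110079_g_at, chip B) read 1148, 1704 and 1592 at P14, 1823, 1882 and 1692 at P28, and 1751, 1896, 1458 and 2136 at P60. The other (102856_at, chip A) read 563, 678 and 812 at P14, 755, 1011 and 844 at P28, and 862, 861, 575 and 1254 at P60. In both, P14 litter 1 was the lowest litter of all, P60 litter 3 the lowest of its age and P60 litter 4 the highest of all, and the P60 and P14 litters overlapped.

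The mean of 110079_g_at was 1482 at P14, 1799 at P28 and 1810.3 at P60. Its log2 change for P60 against P14 was 0.29 (95% interval -0.14 to 0.71; limma adjusted p = 0.491). The mean of 102856_at was 685 at P14, 869.9 at P28 and 888 at P60. Its change for P60 against P14 was 0.32 (interval -0.22 to 0.87; limma adjusted p = 0.544). For P60 against P28 both were close to 0, at -0.00 and -0.01. Without P14 litter 1 the changes for P60 against P14 were 0.12 for 110079_g_at (limma adjusted p = 0.747) and 0.20 for 102856_at (limma adjusted p = 0.71). The intervals with all litters allow a rise of over 0.7 on the log2 scale as well as a small drop, so they do not show that Sox10 stays level. The third Sox10 probe set (100283_at, chip A) lay between 35.05 and 238. It was above the background on 4 of 10 litters, P28 litter 2 (108) and P60 litters 1, 2 and 4 (145, 238 and 155). It was above the chip median on 1, so it was not tested. It is annotated to the same source sequence as 110079_g_at.

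Nkx2-2, a homeodomain factor that acts at the step from progenitor to differentiating cell, had 1 probe set (92747_at, chip A). It read 228, 183 and 159 at P14, 90.9, 194 and 169 at P28, and 141, 231, 130.4 and 161 at P60. The ages overlapped fully. The probe set was above the background of 98.4 on 9 of 10 litters and above the chip median on 2, so it was not tested.

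**Figure D3:**
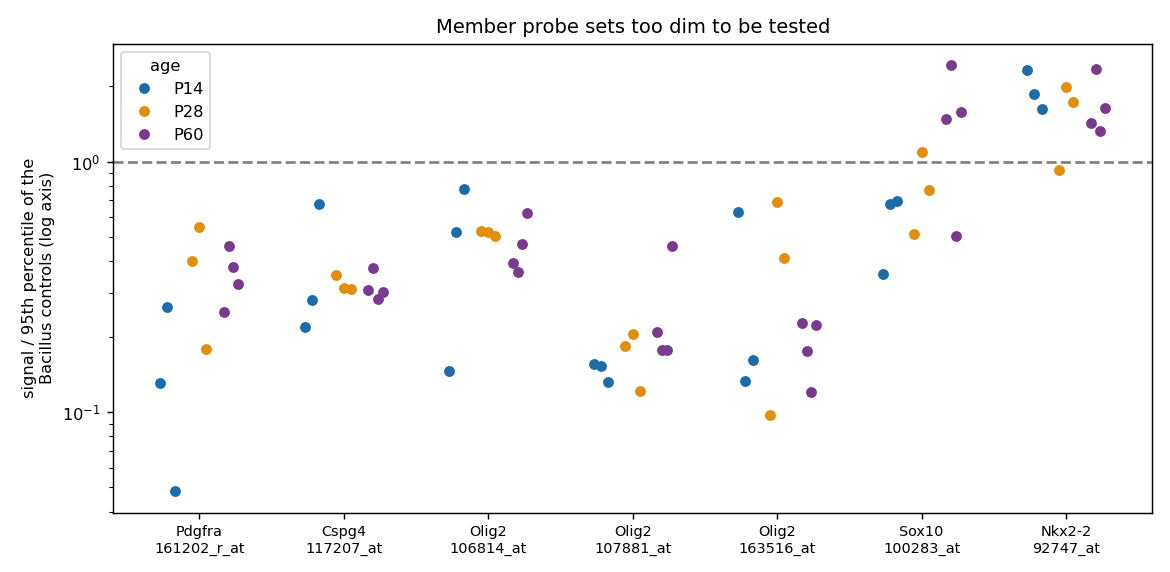
Signal of the 7 member probe sets that were not tested (x axis), in every litter. The y axis (log) is the MAS5 signal divided by the 95th percentile of the chip's Bacillus control probe sets. Points are litters, coloured by age (P14, P28 and P60), and the dashed line marks a signal equal to that percentile. Cspg4, all 3 Olig2 probe sets and 1 Pdgfra probe set lie below the line in every litter.

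Set side by side, and with no test, 5 of the 6 tested probe sets fell into a group of Pdgfra 95079_at, Gpr17 and Olig1 and a pair of Sox10. The sixth, Pdgfra 160332_at, belonged to neither, with r = -0.15 to Gpr17 and 0.043 to Olig1. Across the 10 litters the log2 signals of Gpr17 correlated at r = 0.87 with those of Pdgfra 95079_at and at 0.79 with those of Olig1, while Pdgfra and Olig1 correlated at 0.73. The Sox10 probe sets correlated at 0.85 with each other, and the brighter one at -0.35 with Gpr17. These points share their RNA and, on 1 chip type, their array, and P14 litter 1 is the lowest P14 litter for all 5 of these probe sets. Without that litter the values were 0.91, 0.83 and 0.70 in the first group, and -0.60 between Gpr17 and Sox10. P60 litter 3 was the highest P60 litter for Pdgfra 95079_at, Gpr17 and Olig1 and the lowest for Sox10.

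The median log2 change over the 6 probe sets was -0.07 for P60 against P14, where that of all tested probe sets was 0.06. For P60 against P28 these medians were -0.23 and -0.01, and for P28 against P14 they were 0.10 and 0.03. Single litters decide the sign of 2 of these member medians. Leaving out 1 litter at a time gave -0.22 to 0.081 for P60 against P14, with -0.22 without P14 litter 1 and 0.081 without P14 litter 3, and it gave -0.0039 for P28 against P14 without P14 litter 1.

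The genes whose log2 signals were most like each member's over the 10 litters were named as a description, by the Pearson correlation among all tested probe sets with 1 symbol. For Pdgfra (95079_at) these were Mea1 (0.951), Vps9d1 (0.924) and Ino80 (0.923). For Gpr17 they were Fgf9 (0.942), Tmem164 (0.941) and Abhd13 (0.938). For Olig1 they were Zfp787 (0.935), Nf2 (0.931) and Anapc15 (0.929), and for Sox10 (110079_g_at) they were Ano10 (0.967), Grwd1 (0.965) and Tmem205 (0.957). With only 10 litters and 20724 tested probe sets to choose from, high values are easily found, and nothing is read from them.

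Other genes of the lineage were taken from lists of known markers, with 1 probe set per gene. Over all 11240 tested genes 17 rose and 38 fell for P60 against P14, and without P14 litter 1 these were 106 and 190. The list counts and medians below rest on few litters, and leaving out P14 litter 2 left no gene past the test in any list. Of 15 tested oligodendrocyte progenitor markers, 1 fell and none rose for P60 against P14, and the list's median change was -0.25 (-0.36 to -0.099 with 1 litter left out), where that of all tested genes was 0.05. The gene that fell was Cacng4, an auxiliary subunit of AMPA receptors that neurons also make. It read 1603, 1861 and 2046 at P14, 1335, 1492 and 895 at P28, and 448, 753, 325 and 444 at P60. All P60 litters lay below all younger litters, and the change for P60 against P14 was -1.83 (SE 0.26; limma adjusted p = 0.0143). No gene of this list passed without P14 litter 2, P14 litter 3, P60 litter 1 or P60 litter 4. The next in size were Megf11, at -1.18 (limma adjusted p = 0.103), and the endothelin receptor Ednrb, at -0.96 (limma adjusted p = 0.0803), which did not pass.

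The summed signal of the 15 progenitor markers was 21177 to 22514 at P14, 16972 to 19466 at P28 and 14591 to 18487 at P60. No P28 or P60 litter reached the P14 range of this sum. How often sums of other genes separate in this way was not computed. With each gene weighted equally, as the mean log2 signal after removal of each gene's mean, the ages overlapped. P14 litter 1 was then at -0.059, below P28 litter 1 at 0.074 and P60 litter 2 at -0.021. A sum is led by its brightest probe sets. Of the 15 genes, 9 had a lower mean log2 signal at P60 than at P14, where 45.5% of all tested genes did.

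Of 13 tested markers of differentiating oligodendrocytes, none passed for P60 against P14. The median change was -0.18, and its sign rests on single litters, with -0.022 without P14 litter 1 and 0.049 without P14 litter 3. The largest changes were those of Fyn, a kinase of process outgrowth, at -0.86 (limma adjusted p = 0.0808), Myrf, the transcription factor that turns on myelin genes, at 0.66 (limma adjusted p = 0.283), and Rras2, at -0.65 (limma adjusted p = 0.411). With P14 litter 1 left out, 1 of 13 passed, which was Fyn, at -0.90 (limma adjusted p = 0.0316).

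Of 22 tested myelin and mature oligodendrocyte genes, 2 rose and none fell, with a median change of 0.69. Mag, a glycoprotein of myelin membranes, read 133, 295 and 353 at P14, 781, 999 and 652 at P28, and 630.1, 945, 709 and 817 at P60. Its P60 litters all lay above its P14 litters, with a change of 1.51 (SE 0.28; limma adjusted p = 0.0461). Ndrg1, a protein of myelinating cells, changed by 1.29 (SE 0.17; limma adjusted p = 0.0116), with means of 1135 ± 120 at P60 and 441 ± 26.4 at P14 (SD, n = 4 and 3). Mobp at 1.37 (limma adjusted p = 0.235) and Evi2a at 1.31 (limma adjusted p = 0.172) were among the 3 largest changes and did not pass. Leaving out P14 litter 1 made this 10 of the 22 rising and none falling, and none of the 22 passed without P14 litter 2, P14 litter 3 or P60 litter 4. With 1 litter left out the median lay between 0.63 and 0.86.

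Of 25 tested lineage transcription regulators, none passed. The median change was -0.094, between -0.15 and -0.0080 with 1 litter left out, and 0.046 without P14 litter 1, P60 litters 1 and 4 on chips A and B and P60 litter 2 on chip C together. The largest changes for P60 against P14 were those of Id2, an inhibitor of basic helix-loop-helix factors, at -0.96 (limma adjusted p = 0.124), Hes5, a Notch target, at 0.84 (limma adjusted p = 0.326), and the chromatin remodeller Chd7, at 0.72 (limma adjusted p = 0.212). With that litter left out, 1 of 25 rose (Chd8, a chromatin remodeller, at 0.85; limma adjusted p = 0.0473).

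Of 22 tested mitogens of progenitors and their receptors, 1 fell and none rose, and the median change was 0.36. The gene was Igf2, an insulin-like growth factor that meningeal cells also make, which averaged 1786 ± 352 at P60 and 6160.2 ± 237 at P14 (SD, n = 4 and 3; log2 change -1.79; limma adjusted p = 0.00937). Pdgfa, which encodes the ligand of the Pdgfra receptor, averaged 1109 at P60 and 1392 at P14, a change of -0.34 that did not pass (limma adjusted p = 0.45). Gli2 at 1.00 and Erbb4 at 0.94 did not pass either (limma adjusted p = 0.256 and 0.364), and their P14 means were below the chip's background. With P14 litter 1 left out, Igf2 fell and Bdnf, a neurotrophin, rose (1.43; limma adjusted p = 0.0187).

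Of 20 tested inhibitors of oligodendrocyte differentiation and their receptors, none passed, and the median change was -0.16. The list also holds antagonists of such signals, among them Apcdd1. Notch1, whose signal holds progenitors back from maturation, was at -1.52 (limma adjusted p = 0.103), the Wnt antagonist Apcdd1 at -0.93 (limma adjusted p = 0.227), and Ctnnb1, which encodes beta-catenin, at -0.80 (limma adjusted p = 0.19). Apcdd1 was the 1 gene of the 20 that fell when P14 litter 1 was left out, at -1.40 (limma adjusted p = 0.0175). A fall of this antagonist is not a fall of an inhibitor. No gene of any list passed for P28 against P14 or for P60 against P28 with all litters. For P28 against P14 without P14 litter 1, the myelin genes Mobp (2.16; limma adjusted p = 0.0094) and Mal (1.66; limma adjusted p = 0.00576) rose and Igf2 fell (-1.43; limma adjusted p = 0.0246), where 10 of all 11240 genes rose and 9 fell.

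Pdgfra is also made by meningeal fibroblasts and Cspg4 by mural cells, so markers of other cells were read beside them. Of 5 tested meningeal and fibroblast markers 1 fell, again Igf2, and the list's summed signal was 10266 to 10816 at P14, 5896 to 6434 at P28 and 5269 to 6625 at P60. Of the 5, 4 had a lower mean log2 signal at P60 than at P14, where 45.5% of all tested genes did. Without P14 litter 1 a second one fell, the collagen gene Col1a1. Like the meningeal sum, Pdgfra 95079_at had a lower mean at P60 than at P14. At P28 the meningeal sum was already below its P14 range, while the Pdgfra mean was 1197, against 1145 at P14. Most of the fall of this sum by P28 was that of Igf2. It read 5914, 6182 and 6386 in the P14 litters and 2577, 2241 and 2124 in the P28 litters. The median log2 change of the 5 markers for P28 against P14 was -0.26. What part meningeal cells had in the Pdgfra signal was not tested. None of 7 mural markers (median change 0.10), 11 astrocyte markers (0.04), 7 microglia markers (0.23) or 8 proliferation genes (0.02) passed for P60 against P14. The signs of these 4 medians turn with 1 litter left out, with ranges of -0.14 to 0.30 for the mural, -0.14 to 0.088 for the astrocyte, -0.26 to 0.36 for the microglia and -0.13 to 0.13 for the proliferation list. Besides Igf2, the 3 largest changes of each list were those of Vtn (0.64), Rgs5 (-0.59) and Myh11 (0.55) among mural markers, and of Col1a1 (-0.78) and Dcn (-0.53), both matrix genes, among meningeal ones. They were S100b (0.63), Slc1a3 (-0.60) and Gja1 (-0.49) for astrocytes, Cx3cr1 (0.40), Tmem119 (0.31) and C1qc (-0.27) for microglia, and Mcm5 (-0.46), Mcm3 (0.29) and Pcna (-0.28) for proliferation, and none of these passed with all litters. The proliferation genes summed to 3020 to 4295 at P14, 2811 to 3251 at P28 and 2762 to 4227 at P60, so the ages overlapped.

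**Figure D4:**
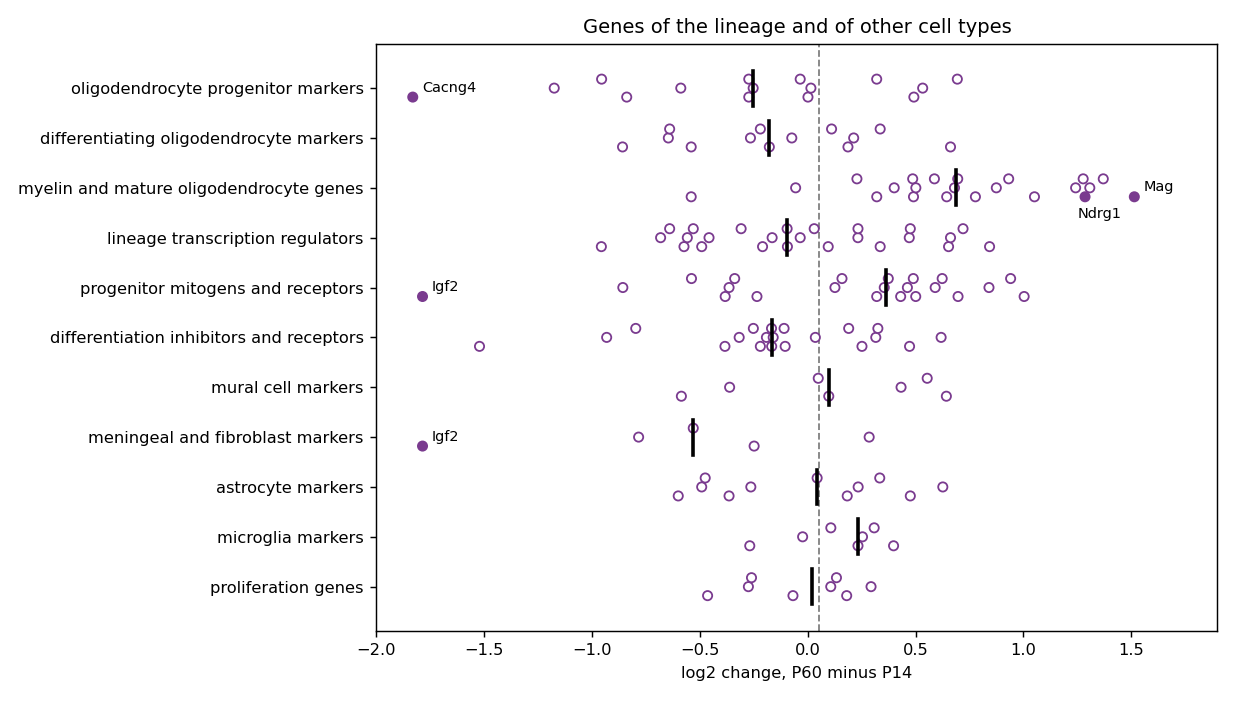
Log2 change for P60 against P14 (x axis) of the tested genes of each list (rows), from the fit with all 10 litters. Filled points passed limma's test with adjustment over all probe sets, open points did not, vertical bars are list medians, and the dashed line is the median of all genes tested. Cacng4 lies at -1.83 and Igf2 at -1.79 on the left, with Mag at 1.51 and Ndrg1 at 1.29 on the right.

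**Figure D5:**
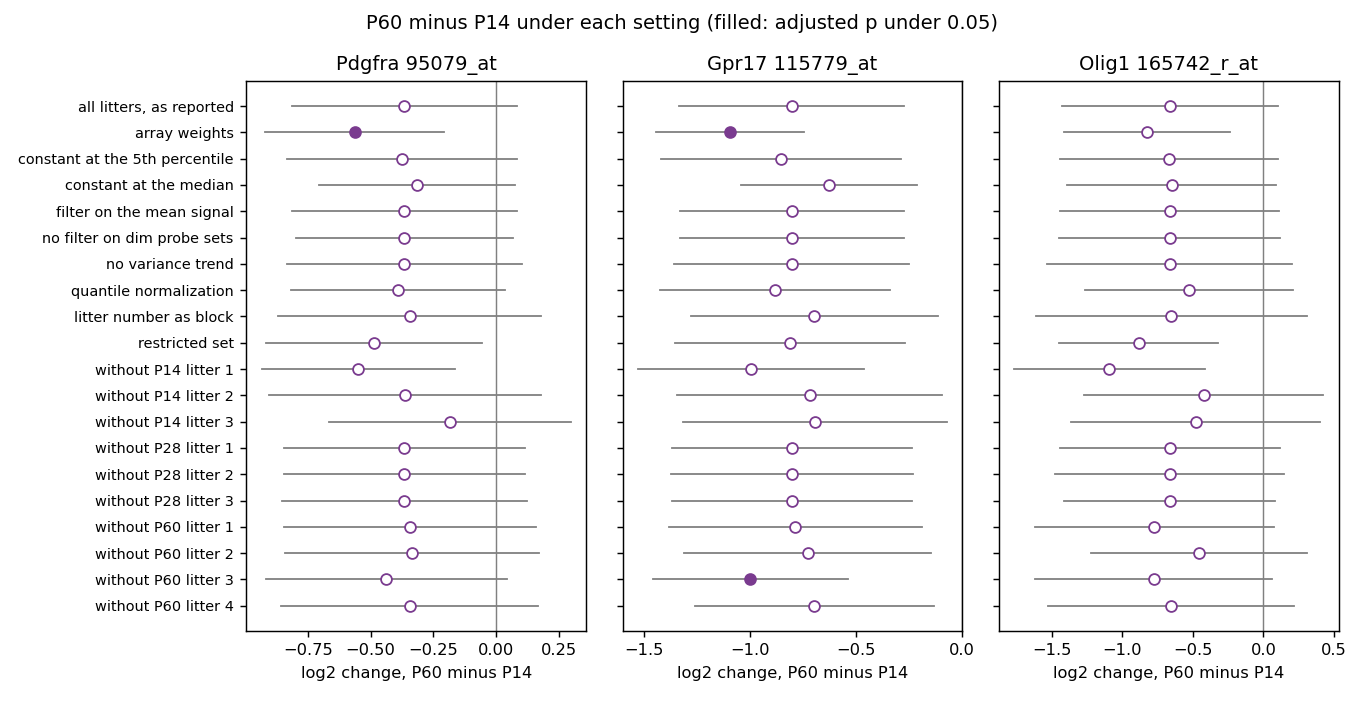
Log2 change (x axis) for P60 against P14 of the brightest Pdgfra probe set, Gpr17 and Olig1 (panels) under every setting tried (rows), with 95% intervals as lines. Filled points passed at an adjusted p under 0.05 and open points did not. All 3 lie left of 0 under every setting shown, Gpr17 passed with array weights and without P60 litter 3, and Pdgfra passed with array weights.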

How the data were processed

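Per the submitters' processing notes, the deposited signal intensities were calculated with MAS5 (version not stated). Each array's 2% trimmed mean is close to 500, which shows a scaling before they were deposited, and none was added. Sample titles carry 2 litter numbers, and the second was taken as the litter. The p-values assume that the 10 litters are separate. Precision is limited by how many arrays there are.

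Signals were taken as log2 of the signal plus the chip type's 20th percentile (38.6 on A, 57.8 on B, 44.0 on C). Probe sets above the chip median (207, 252 and 183) on at least 3 arrays were tested, 20724 in all. Each chip type was fitted with limma 3.58.1 in R 4.3.3 (lmFit, eBayes with a variance trend) with age as the only term, and p-values were adjusted by Benjamini-Hochberg across all 3 chip types at once (threshold 0.05). The fit was run on simulated data with planted changes larger than any reported for a tested member, and with the same noise on every array. That run does not show whether changes as small as those of the members could be found. Alternatives were the constant, the filter, the variance trend, quantile normalization, array weights, the litter number as a block, and leaving out single litters or the arrays of doubtful quality.

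Symbols came from the array annotation, updated through the gene ID, which matched for 99.7%. Lists use 1 probe set per gene, from chip A if possible, then B, then C, and the one with the highest mean within a chip. From each list were named the genes past the threshold and the 3 with the largest change for P60 against P14. For each tested member the 3 genes most like it were named. Chd8, Bdnf, Pdgfa and, for the tissue check, Snap25 and Slc17a7 were named after their values were seen. The members, the lists and the tests were chosen with earlier results of these data known. MAS5 detection calls and probe-level intensities were not used here.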

Additional observations from a re-analysis of the deposited data

Results flagged for a closer look

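In 2 of the 13 groups of 4 P60 litters looked at, 1 for each member probe set, a single litter stood apart from the other 3. Chance gives such a gap in about 1 of 20 groups. Pdgfra 95079_at read 1009 in P60 litter 3, and the other P60 litters lay between 805 and 823. Olig2 107881_at read 70.4 in P60 litter 4, which is still below the array background, so the gap lies within values that carry no measured level.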

How the results depend on the processing

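The 18 log2 changes of members were recomputed under 19 alternatives each. Of these values, 313 kept their direction and their side of the threshold, 3 passed where the reported value did not, and 26 changed sign. Many of the 313 could not change direction. Leaving out a litter does not alter the change between the remaining ages. The alternative filters and the fit without the variance trend leave each log2 change as reported. The 313 are therefore not a measure of stability. All 26 had an adjusted p of at least 0.782. They include the changes for P60 against P14 of Sox10 102856_at, reported as 0.32, and Pdgfra 160332_at, reported as 0.22. For P60 against P14 no member passed with all litters. With array weights 2 passed, and over the 3 ages together 1. Leaving out single litters gave 0 to 1, where the 1 was Gpr17 without P60 litter 3. The 4 list genes that passed became 13 without the arrays of doubtful quality, which are P14 litter 1, P60 litters 1 and 4 on chips A and B, and P60 litter 2 on chip C, and 0 to 17 without single litters (17 without P14 litter 1, 0 without P14 litter 2). The count over all probe sets for P60 against P14 was 82, and became 3621 with array weights, 441 without those arrays, 51 without the variance trend, and 0 to 497 without single litters. The cause was not tested.

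Signs turned as follows. Pdgfra 160332_at for P60 against P28 was -0.0033 with quantile normalization and -0.26 without the arrays of doubtful quality, and for P60 against P14 it was -0.17 without them. Pdgfra 95079_at for P28 against P14 was -0.085 with array weights and -0.10 without those arrays. Sox10 102856_at for P60 against P28 was 0.12 with array weights and 0.0097 with quantile normalization, and for P60 against P14 it was -0.073 without the doubtful arrays. Sox10 110079_g_at for P60 against P28 was 0.055 with array weights and 0.077 with quantile normalization. Leaving out single litters gave, for P28 against P14, -0.042 to 0.35 for Pdgfra 160332_at, -0.10 to 0.27 for Pdgfra 95079_at, -0.30 to 0.0038 for Gpr17 and -0.57 to 0.14 for Olig1. For P60 against P28 it gave -0.13 to 0.35 for Pdgfra 160332_at, -0.19 to 0.17 for Sox10 102856_at and -0.084 to 0.094 for Sox10 110079_g_at, and for P60 against P14 -0.020 to 0.46 for Pdgfra 160332_at.

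The labels do not say that litter numbers pair litters of different ages. Deviations of same-numbered litters from their age means correlated at -0.08 to 0.16, and 4 of 27 correlations were over 0.1. With so few litters at each age, these values cannot settle whether such a pairing exists. With the litter number as a replicate block, 0 members passed, Gpr17 was at -0.70 for P60 against P14 (limma adjusted p = 0.372), and the count over all probe sets was 0 in place of 82. Quantile normalization moved the median change of all probe sets by under 0.1. Signal over background is the limit for Cspg4 and Olig2. Nkx2-2 was left out by the filter on the chip median, and in the fit with no filter it was at -0.18 for P60 against P14 (limma adjusted p = 0.814). Sox10 100283_at, left out by the same filter, was at 0.87 in that fit (limma adjusted p = 0.345).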

Other observations

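The ratio of 2 probe sets on the same array does not depend on the scaling between arrays, and shows unequal change only. It was computed after the values had been seen and carries no test. The log2 ratio of Gpr17 to Sox10 on chip B was -0.75, -0.73 and -0.58 in the P14 litters, -0.99, -1.17 and -1.14 in the P28 litters, and -1.87, -2.19, -0.91 and -2.47 in the P60 litters. Every P28 litter lay below every P14 litter, P14 litter 1 included, and so did every P60 litter, while P60 litter 3 lay above the P28 litters. How often other pairs of probe sets separate in this way was not computed, so the separation is a description only. P60 and P14 differed by -1.17, and by -1.20 without P14 litter 1.

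The log2 ratio of Pdgfra 95079_at to Sox10 on chip A was 0.61, 0.73 and 0.84 in the P14 litters, 0.78, 0.08 and 0.54 in the P28 litters, and -0.07, -0.10, 0.81 and -0.61 in the P60 litters. P60 litters 1, 2 and 4 lay below every younger litter, and P60 litter 3 did not. On chips A and B the arrays of P60 litters 1 and 4 are among those of doubtful quality. P60 and P14 differed by -0.72, and by -0.77 without P14 litter 1. P14 litter 1, which had the lowest signals of its age for all 3 genes, was the lowest P14 litter in these ratios too.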
